A study of Mus musculus with 6 samples.

Results

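The genes described here are the 8 immunoglobulin (Ig) heavy chain constant genes of the mouse, Ighm, Ighd, Ighg3, Ighg1, Ighg2b, Ighg2c, Ighe and Igha, taken by symbol from the 27179 genes of the count table. All 8 were in the table and all 8 passed the filter on low counts. RNA-seq had been done on NP-binding IgG1+ germinal center (GC) B cells from the spleen, in 6 libraries. Each of days 7, 10 and 14 after intraperitoneal NP-KLH in alum had 1 WT and 1 Il21r-/- library. NP-KLH is the hapten NP on a carrier protein and alum is an adjuvant. The labels give a C57BL/6 background for all samples, and the study's mice were 6 to 26 weeks old and matched for age. Cells enriched on anti-IgG1 beads were sorted as B220+, IgG1+ and NP-binding and as negative for CD38, surface IgM, IgD, CD138 and Gr1, so the gate itself favours Ighg1 and disfavours surface IgM and IgD. According to the methods, nearly all experiments used irradiated Ly5.1 hosts rebuilt with WT or Il21r-/- bone marrow, which can leave host cells. The methods give 9 to 10 mice per genotype in all, from 2 immunizations, and the supplement 3 of each genotype for the day 7 sort. The series record instead gives 1 mouse for each sample, so the number of mice behind a library is uncertain, and the p-values measure the spread between these libraries. Il21r itself, the targeted gene, was lower in every Il21r-/- library (105, 127 and 112 CPM, that is counts scaled to library size) than in every WT library (343, 261 and 245 CPM), and some Il21r reads remained.

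The constant region of the heavy chain sets the class of an antibody and which receptors and effector cells it can engage. Class switch recombination joins the rearranged variable region to a constant gene further downstream and deletes the DNA between them. Before a gene can be a target, its own germline promoter has to be transcribed, and for Ighg1 and Ighe the cytokine IL-4 acting through STAT6 is the classical inducer. IL-21, made by T follicular helper cells, is known to restrain IgE, and mice without its receptor are known for raised serum IgE.

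Each of the genes lies on the minus strand of chromosome 12 (GRCm38, RefSeq positions), in the order in which they are named here. Ighm (Entrez 16019, chr12:113418826-113422730) encodes the heavy chain of IgM, the first class a B cell makes. Ighd (380797, chr12:113407535-113416324) encodes that of IgD, which naive cells make from the same transcript as IgM by splicing. The 4 gamma genes follow, and each encodes an IgG subclass. They are Ighg3 (380795, chr12:113357442-113361232), Ighg1 (16017, chr12:113326541-113330523), Ighg2b (16016, chr12:113304314-113307933) and Ighg2c (404711, chr12:113287389-113288932). Ighe (380792, chr12:113269263-113273248), 149.48 kb downstream of Ighm, encodes the heavy chain of IgE, the class that arms mast cells and basophils. Igha (238447, chr12:113256204-113260236) comes last and encodes that of IgA, the mucosal class.

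The genes are related in sequence, so it matters for what follows whether a 100-base read can be placed on 1 of them. Within the coding exons (GENCODE, GRCm38), no 100-base window of Ighe, Ighm, Ighd or Igha was within 3 mismatches of a window of another member. The closest coding windows of Ighe and Ighg1, both in the 5th coding exon, share 74 of 100 bases and differ at 26, so the reads of Ighe are distinct from those of the gene that the gate selects. They are shown 5′ to 3′ on the minus strand, at chr12:113269426-113269525 for Ighe and chr12:113327442-113327541 for Ighg1 (GRCm38), with the differing bases in capitals.
Ighe: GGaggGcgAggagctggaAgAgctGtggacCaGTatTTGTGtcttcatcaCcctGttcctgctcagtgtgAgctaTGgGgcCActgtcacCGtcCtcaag
Ighg1: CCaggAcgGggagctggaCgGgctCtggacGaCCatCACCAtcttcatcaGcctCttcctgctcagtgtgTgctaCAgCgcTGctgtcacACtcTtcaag
Ighg2b and Ighg2c are far closer. Of 676 coding windows of Ighg2b, 133 (19.7%) were within 3 mismatches of Ighg2c, although none was identical. Their closest windows, in the 3rd coding exon at chr12:113306965-113307064 and chr12:113287965-113288064, differ at 1 of 100 bases, again in capitals.
Ighg2b: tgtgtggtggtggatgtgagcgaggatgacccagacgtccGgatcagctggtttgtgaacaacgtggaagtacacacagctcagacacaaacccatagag
Ighg2c: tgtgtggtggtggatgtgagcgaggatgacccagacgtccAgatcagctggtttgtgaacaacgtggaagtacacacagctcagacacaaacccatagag
How reads that fit more than 1 gene were counted is not given in the sources used here, so the split of reads between Ighg2b and Ighg2c is uncertain. For Ighg3, 20 of 676 windows were within 3 mismatches of another member, and for Ighg1 it was 1 of 667.

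Levels were compared between genes as RPKM, that is counts per kilobase of counted gene length, scaled to library size. Ighg1 had the highest RPKM and Ighm the next highest in all 6 libraries. In the Il21r-/- libraries the order below them was Ighe, Ighg2b, Ighg3, Igha, Ighg2c and Ighd, identical on the 3 days. In the WT libraries Ighe ranked lower, behind Ighg2b and Ighg3 on days 7 and 10 and behind Ighg3 on day 14. Ighe had 10.4 ± 2.01 RPKM (SD, n = 3) in WT and 75.2 ± 6.26 RPKM (SD, n = 3) in Il21r-/- libraries. For comparison, Ighg1 had 2141 ± 321 RPKM in WT and 2341 ± 308 RPKM in Il21r-/- libraries (SD, n = 3). Neighbours in this order that did not differ beyond their spread were, in WT, Ighg2b (11.98 to 29.7 RPKM) with Ighg3 (16.8 to 19.5 RPKM) and with Ighe (8.21 to 12.1 RPKM), and Ighg2c with Ighd. In Il21r-/- libraries only Ighg2c (1.55 to 3.23 RPKM) and Ighd (1.03 to 1.65 RPKM) overlapped among neighbours. The counted models of Ighg2c and Ighd, at 1007 and 1008 bases, are the shortest of the 8, and the RefSeq span of Ighg2c (1544 bases) stops short of the membrane exons that GENCODE gives it.

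**Figure D1:**
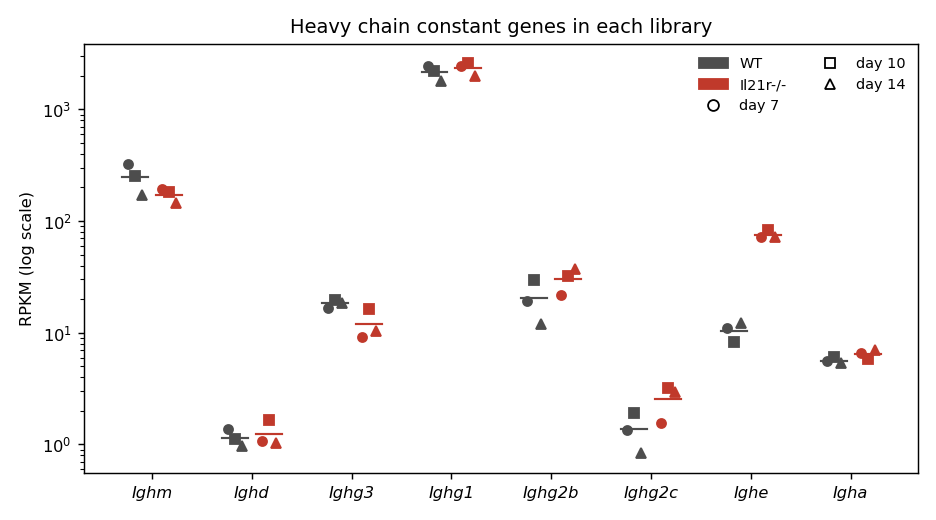
RPKM of each heavy chain constant gene (log axis, genes in order along the locus) in the 6 libraries, with color for genotype, marker shape for day and a line at the mean of each genotype. Ighe sits between 8.21 and 12.1 RPKM in WT and between 71.5 and 82.4 RPKM in Il21r-/- libraries, and for no other gene are the genotypes as far apart.

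Ighe was the one constant gene called in the tests of all 3 days, and it was higher in Il21r-/- cells each time. The WT libraries held 446, 301 and 386 Ighe counts on days 7, 10 and 14, and the Il21r-/- libraries 2451, 3227 and 2655. Scaled to library size, that was 16.2, 12.1 and 17.9 CPM in WT and 106, 122 and 106 CPM in Il21r-/- libraries. The lowest Il21r-/- library was far above the highest WT library, and within a genotype the days lay close together. The fold difference was 6.54 on day 7 (log2 fold change 2.71 ± 0.28 SE, adjusted p = 9.44e-17, edgeR likelihood ratio test). On day 10 it was 10.0 (log2 fold change 3.33 ± 0.28, adjusted p = 7.33e-24) and on day 14 it was 5.90 (2.56 ± 0.28, adjusted p = 1.07e-14, both by edgeR). Each of these tests sets 1 library against 1, with the spread taken from all 6. Over the 3 days the fold was 7.22 (log2 fold change 2.85 ± 0.15, adjusted p = 6.87e-05, edgeR quasi-likelihood test), with all 3 Il21r-/- libraries above all 3 WT libraries.

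Of the 8 constant genes, Ighe was the only one called by the day 7 test, in which 1.07% of the 11005 genes tested were called. The count was again 1 of 8 on day 10, where 3.1% of all genes were called, and 1 of 8 on day 14, where 3.28% were. Over the 3 days together 2 of 8 were called, Ighe higher and Ighm lower in Il21r-/- cells, against 5.92% of all genes. With day as a block, which pairs the WT and the Il21r-/- library of a day, 4 of 8 were called (Ighe, Ighm, Ighg3 and Ighg2c), and 22.9% of all genes.

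**Figure D2:**
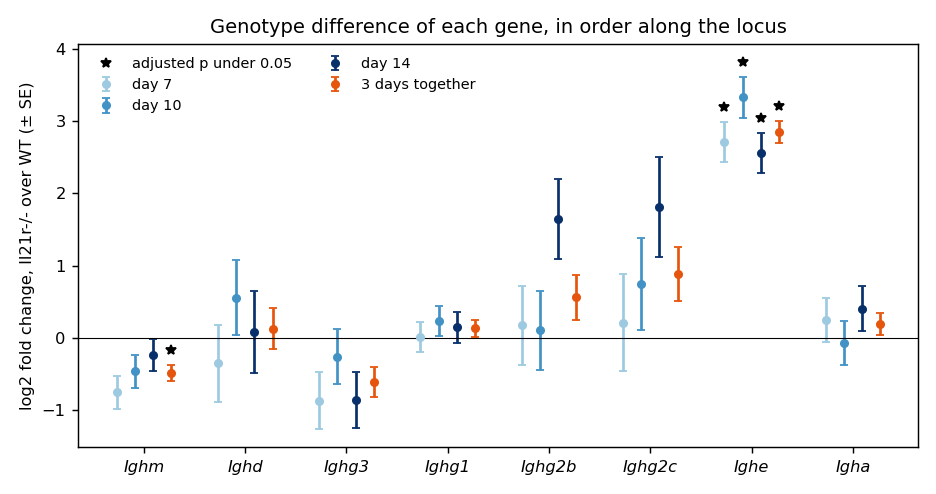
Log2 fold change of Il21r-/- over WT (± SE) of each gene, in order along the locus, on days 7, 10 and 14 and over the 3 days together, with a star where the adjusted p was under 0.05. The 4 values of Ighe lie between 2.56 and 3.33 and Ighm has a star over 3 days alone, while Ighg2b and Ighg2c stand at 1.64 and 1.81 on day 14 without a call.

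A ratio within a library does not depend on library size. For every 1000 Ighg1 counts there were 4.51, 3.75 and 6.75 Ighe counts in the WT libraries of days 7, 10 and 14, and 29.3, 32.0 and 35.9 in the Il21r-/- libraries. The genotypes did not overlap, and the ratio was 6.49, 8.55 and 5.32 times higher in Il21r-/- cells on the 3 days. Its mean was 6.66 times higher, with p = 0.1 by an exact two-sided permutation test over the libraries, which is the smallest p that 3 against 3 can give. Against Igkc, the constant gene of the kappa light chain that most mouse antibodies carry, Ighe was 6.90 times higher, again with p = 0.1 in the exact permutation test. Ighe made up 0.391, 0.328 and 0.604% of all heavy chain constant counts in WT and 2.61, 2.86 and 3.17% in Il21r-/- libraries. The exact (Clopper-Pearson) 95% intervals of these shares, which cover counting error only, were widest on day 14, from 0.545 to 0.667% in WT and from 3.05 to 3.29% in the Il21r-/- library. Mean shares were 0.441 ± 0.144% and 2.88 ± 0.281% (SD, n = 3 each, p = 0.1, exact permutation test). Ighe was a minor part of heavy chain transcripts in both genotypes, among cells that the gate had selected for IgG1. These shares therefore do not describe B cells outside that gate. Bulk libraries cannot tell apart more cells with Ighe transcripts from more Ighe RNA per cell, and counts on constant exons cannot tell germline from switched transcripts.

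**Figure D3:**
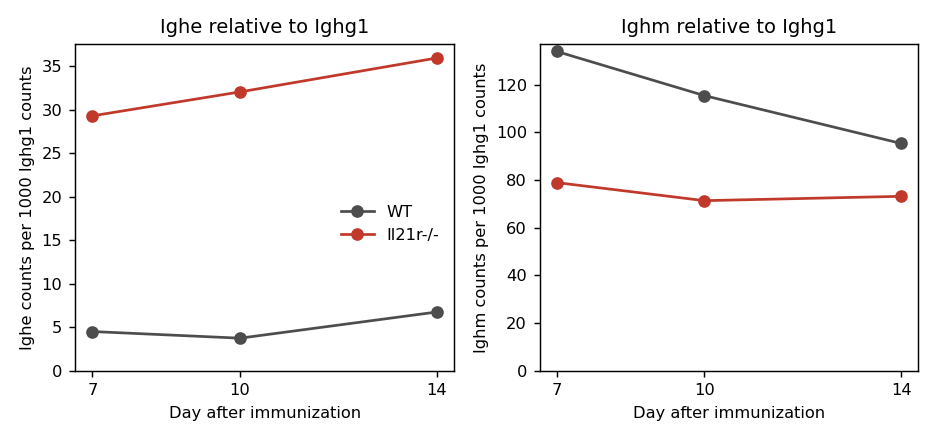
Ighe counts (left) and Ighm counts (right) for every 1000 Ighg1 counts in each library, against the day after immunization, with a line for each genotype joining 1 library per day. Ighe lies at 29.3 to 35.9 in Il21r-/- and at 3.75 to 6.75 in WT, while Ighm in WT comes down from 134 on day 7 to 95.3 on day 14 and lies at 71.4 to 78.9 in Il21r-/- libraries.

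Ighg1, the gene of the sorted class, showed no difference of that kind. Its level was 3597, 3242 and 2656 CPM in WT and 3625, 3809 and 2944 CPM in Il21r-/- libraries on days 7, 10 and 14. The genotypes overlapped and both had their lowest value on day 14. Over the 3 days the log2 fold change was 0.13 ± 0.12 SE (adjusted p = 0.574, edgeR quasi-likelihood test). Ighg1 held 86.7 to 89.4% of heavy chain constant counts in WT and 88.3 to 89.2% in Il21r-/- libraries (p = 0.4, exact permutation test). When Ighm and Ighd were left out of the sum, the direction turned. Ighg1 then held 98.1, 97.6 and 97.7% of switched counts in WT and 95.9, 95.2 and 94.4% in Il21r-/- libraries. The shares of 1 sum are not independent. In the same sum Ighe went from 0.443, 0.366 and 0.66% in WT to 2.81, 3.05 and 3.39% in Il21r-/- libraries. On day 14 Ighg2b also went from 0.539% in WT to 1.47% in the Il21r-/- library. The lower Ighg1 share therefore restates higher shares of other genes in the sum, that of Ighe on each day, and is no separate result.

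Ighm RNA was the second most abundant constant transcript although IgM-bearing cells had been gated out. It was lower in Il21r-/- cells over the 3 days and fell with time. WT libraries had 482, 374 and 253 CPM on days 7, 10 and 14, and Il21r-/- libraries 286, 272 and 215 CPM. The Il21r-/- library was the lower one on every day, the gap narrowed from day 7 to day 14, and across days the ranges overlapped. Over the 3 days the log2 fold change was -0.48 ± 0.11 SE, a level 0.716 times that of WT (adjusted p = 0.0457, edgeR quasi-likelihood test), and with day as a block the adjusted p was 0.000193 (edgeR). The call was close to the threshold. It was lost when any library but the Il21r-/- library of day 10 was left out, with adjusted p of 0.173 without WT day 7, 0.159 without Il21r-/- day 7, 0.148 without WT day 10, 0.116 without WT day 14 and 0.0759 without Il21r-/- day 14 (edgeR). The separate tests gave log2 fold changes of -0.75 on day 7 (adjusted p = 0.072), -0.46 on day 10 (adjusted p = 0.416) and -0.23 on day 14 (adjusted p = 0.787), none of them called by edgeR. The day 7 difference was called under 4 of 13 alternatives. These were dispersions from day as a factor (adjusted p = 0.000888), a linear day term (0.0287) and dispersions without the Il21r-/- library of day 10 (0.00671), all by edgeR, and the DESeq2 Wald test (adjusted p = 0.00925).

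As a share of heavy chain constant counts, Ighm made up 11.6, 10.1 and 8.52% in WT and 7.04, 6.36 and 6.46% in Il21r-/- libraries. Here the genotypes did not overlap, with means of 10.1 ± 1.55% and 6.62 ± 0.366% (SD, n = 3 each, p = 0.1, exact permutation test). Set against each other, there were 33.7, 32.5 and 70.8 Ighe counts for every 1000 Ighm counts in WT and 371, 449 and 491 in Il21r-/- libraries. Ighd, whose product was gated out as well, had few counts. There were 38, 28 and 21 counts in WT and 25, 44 and 26 in Il21r-/- libraries, with overlapping genotypes and a log2 fold change of 0.13 ± 0.28 SE over 3 days (adjusted p = 0.84, edgeR). At these counts the exact 95% interval of its share, for counting error, ran from 0.0203 to 0.0502% in the WT library of day 14.

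Of the other gamma genes, Ighg3, which serves T-independent responses among others, leaned lower in Il21r-/- cells. It had 20.2, 23.4 and 22.4 CPM in WT and 11.1, 19.6 and 12.4 CPM in Il21r-/- libraries, so all 3 Il21r-/- libraries lay below all 3 WT libraries, the day 10 library only just. The log2 fold change over 3 days was -0.61 ± 0.21 SE and was not called (adjusted p = 0.132, edgeR quasi-likelihood test). It was called with day as a block (log2 fold change -0.65, adjusted p = 0.000358, edgeR) and without the Il21r-/- library of day 10 (log2 fold change -0.91, adjusted p = 0.000335, edgeR). The DESeq2 Wald test called it over 3 days as well (adjusted p = 0.0374). On single days it was called with dispersions taken without that library (adjusted p = 0.0147 on day 7 and 0.00688 on day 14) and, from all libraries, with dispersions from day as a factor (0.013 and 0.00562, edgeR). Its share was 0.487, 0.633 and 0.754% in WT and 0.273, 0.458 and 0.371% in Il21r-/- libraries (p = 0.1, exact permutation test).

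For Ighg2b and Ighg2c, the genes of the IgG2 subclasses, the difference was larger on day 14 than on days 7 and 10, although neither gene was called on any day and the trend with day was not called. Ighg2b had 645, 899 and 315 counts in WT and 611, 1033 and 1148 in Il21r-/- libraries, and Ighg2c had 37, 48 and 18 in WT and 36, 86 and 74 in Il21r-/- libraries. On days 7 and 10 the Ighg2b levels of the genotypes were close (23.5 and 36.3 CPM in WT, 26.5 and 39.1 CPM in Il21r-/-), and on day 14 the WT library had its lowest value (14.6 CPM) and the Il21r-/- library its highest (45.7 CPM). Ighg2c had 1.35, 1.94 and 0.837 CPM in WT and 1.56, 3.25 and 2.95 CPM in Il21r-/- libraries, with its highest value in the Il21r-/- library of day 10, when the fold was 1.68 (adjusted p = 0.825, edgeR). The day 14 difference was 3.12-fold for Ighg2b (log2 fold change 1.64 ± 0.55 SE, adjusted p = 0.0881, edgeR) and 3.51-fold for Ighg2c (1.81 ± 0.69, adjusted p = 0.164, edgeR). Neither passed the threshold, and each rests on 1 library per genotype. The Ighg2b difference was called when the dispersions left out the Il21r-/- library of day 7 (adjusted p = 0.0391) or the WT library of day 10 (adjusted p = 0.00797), and that of Ighg2c without the Il21r-/- library of day 7 (adjusted p = 0.0389) or of day 10 (adjusted p = 0.0488) and, from all libraries, with dispersions from day as a factor (0.00606, all by edgeR). Over 3 days Ighg2b had a log2 fold change of 0.57 ± 0.31 SE (adjusted p = 0.349) and Ighg2c of 0.89 ± 0.37 (adjusted p = 0.211, both edgeR quasi-likelihood), and with day as a block Ighg2c was called (adjusted p = 0.0181, edgeR). These 3-day values moved with single libraries. The log2 fold change of Ighg2b was lowest without the WT library of day 14 (0.078), 0.33 without the Il21r-/- library of day 14, 0.89 without that of day 7 and highest without the WT library of day 10 (0.95). That of Ighg2c ran from 0.42 without the WT library of day 14 to 1.30 without the Il21r-/- library of day 7, and none of these was called by edgeR.

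Igha, too, was not called in any comparison. Its level lay between 6.51 and 7.42 CPM in WT and between 7.07 and 8.61 CPM in Il21r-/- libraries. The genotypes overlapped, with a log2 fold change of 0.20 ± 0.15 SE over 3 days (adjusted p = 0.513, edgeR). Although Igha is the direct neighbour of Ighe downstream, its share was 0.195% in WT and 0.208% in Il21r-/- libraries on average (p = 0.8, exact permutation test).

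**Figure D4:**
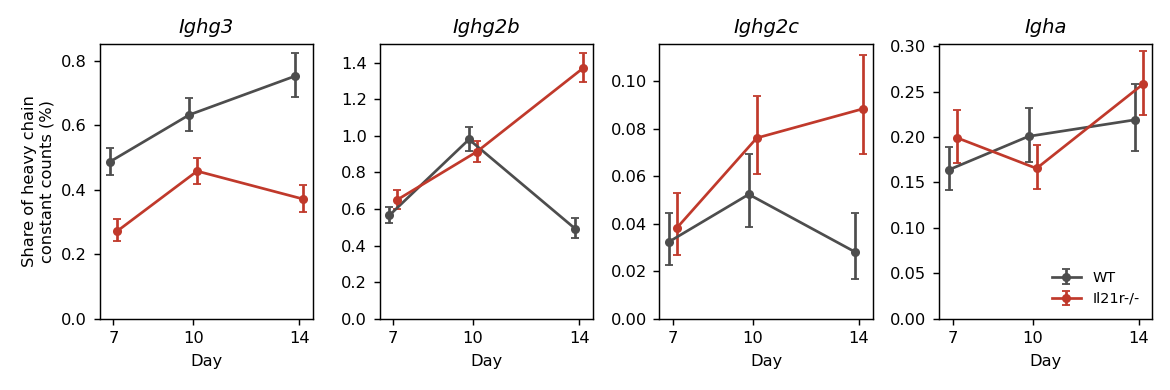
Share of the heavy chain constant counts (percent, each panel with its own axis from 0) of Ighg3, Ighg2b, Ighg2c and Igha by day, with exact 95% intervals for counting error and a line per genotype. Ighg3 is lower in Il21r-/- on each day, the Ighg2b lines part on day 14 (0.492% in WT and 1.37% in Il21r-/-), and the Igha lines cross.

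A linear effect of day was called for 1 of the 8 genes, against 4.43% of all genes tested. Ighm fell by 0.10 on the log2 scale for each day in the model of both genotypes (± 0.02 SE, adjusted p = 0.0372, edgeR quasi-likelihood test), to 62.6% of its day 7 level on day 14. The call was lost without the WT library of day 7 (adjusted p = 0.339) or day 14 (0.445), or the Il21r-/- library of day 7 (0.0633) or day 14 (0.079, all edgeR adjusted p). Ighg1 had a slope of -0.05 per day that was not called (adjusted p = 0.171, edgeR). Ighe had a slope of 0.01 ± 0.03 SE per day (adjusted p = 0.829, edgeR), with no call under any of the 13 alternatives. Whether the genotypes differed in their trend with day was tested as well, and 0 of the 8 genes were called, as were 0% of all genes. At an unadjusted p under 0.05, 118 of 11005 genes passed that test and none of the 8 was among them. Ighg2b was the only member called under an alternative, without the WT library of day 7 (adjusted p = 0.0362, edgeR).

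The pathway that leads to the constant genes was then read from 3 lists. The DNA repair and accessory factors of class switch recombination were all tested (31 of 31), and none was called on any single day. Over the 3 days 2 of 31 were lower in Il21r-/- cells and none was higher, beside 154 lower and 497 higher of all 11005 genes, with a median log2 fold change of -0.22 against 0.01 for all genes. They were Msh6, a mismatch repair factor (-0.47 ± 0.11 SE, adjusted p = 0.0412), and Hmces, which shields abasic sites (-0.50 ± 0.11, adjusted p = 0.0282, both edgeR). With day as a block 12 of 31 were lower, against 1027 of all 11005 genes.

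Among the regulators of germline transcription, 29 of 32 were tested, since Il13ra1, Id1 and Zeb2 were under the expression limit. On day 7 Il21r was lower and nothing else was called. Il21r and Tbx21, the factor T-bet known for directing the IgG2c class, were lower on days 10 and 14. Cd40, the receptor for T cell help, was higher on day 14. These are 1, 2 and 3 of 29 genes, beside 1.07, 3.1 and 3.28% of all genes called on the 3 days, and each count includes Il21r, whose lower level follows from the design. Over the 3 days 2 of 29 were higher and 3 lower, beside 5.92% of all genes called, with a median of 0.03. Cd40 (log2 fold change 0.53 ± 0.10 SE, adjusted p = 0.0164) and Pax5, the B cell identity factor (0.67 ± 0.15, adjusted p = 0.0387), were the higher ones by edgeR. Tbx21 (-1.88 ± 0.37, adjusted p = 0.0172), Il21r (-1.29 ± 0.13, adjusted p = 0.00137) and Jak3, a kinase of the common gamma chain receptors (-0.62 ± 0.13, adjusted p = 0.0296), were the lower ones. Tbx21 was low throughout, from 0.976 to 2.0 CPM in WT and from 0.12 to 0.866 CPM in Il21r-/- libraries. Il4ra, the IL-4 receptor chain, had 301, 201 and 172 CPM in WT and 313, 264 and 213 CPM in Il21r-/- libraries. It was higher in the Il21r-/- library of each day, but the difference over 3 days was not called (0.25 ± 0.11, adjusted p = 0.226, edgeR). Stat6 was not called either (0.18 ± 0.13, adjusted p = 0.46, edgeR). With day as a block, which called 22.9% of all genes, 8 were higher, Il4ra among them (adjusted p = 0.0211, edgeR), and 8 lower.

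Among receptor partners and secretion genes, 10 of 12 were tested (Pigr and Hnrnpll were under the limit). Fcer2a, which encodes CD23, the low-affinity receptor for IgE, was the one gene called on each day and over 3 days, with none lower and a 3-day median of 0.26 against 0.01 for all genes. That is 1 of 10 in each test, beside 1.07, 3.1 and 3.28% of all genes called on days 7, 10 and 14 and 5.92% over 3 days. It had 389, 217 and 153 CPM in WT and 802, 783 and 507 CPM in Il21r-/- libraries. All Il21r-/- libraries were above all WT libraries, and the fold over 3 days was 2.91 (log2 fold change 1.54 ± 0.15 SE, adjusted p = 0.00119, edgeR). Igkc, the light chain transcript, had 1126, 938 and 1008 CPM in WT and 932, 1008 and 1339 CPM in Il21r-/- libraries, with overlapping genotypes (log2 fold change 0.08 ± 0.15 SE, adjusted p = 0.804, edgeR). With day as a block 6 of 10 were higher, against 1492 of all 11005 genes.

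**Figure D5:**
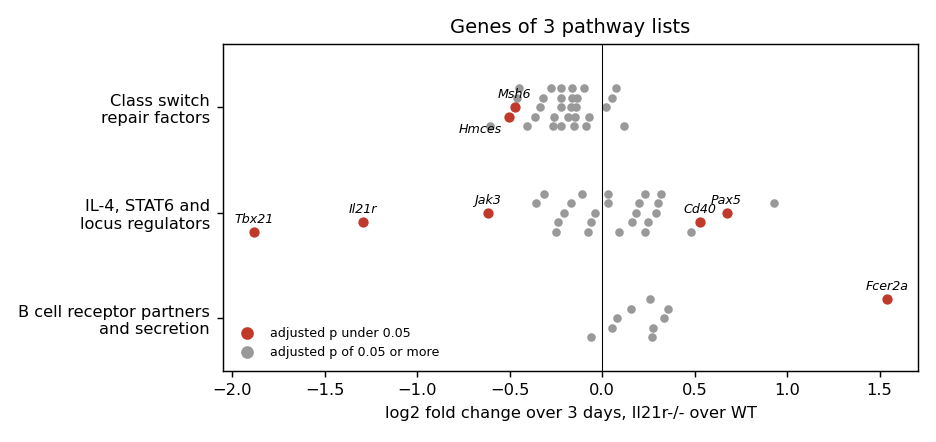
Log2 fold change over 3 days (Il21r-/- over WT) of every tested gene of the 3 lists, 1 point per gene, with genes of an adjusted p under 0.05 in red and named. Most repair factors lie left of 0 (median -0.22) with Msh6 and Hmces called, and Fcer2a (1.54) is the point farthest to the right.

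The genes whose pattern over the 6 libraries was most like that of Ighe were Pdia4, a chaperone of the endoplasmic reticulum (Pearson r of log2 CPM 0.9986), Ccl22, a chemokine gene (0.9977), Kcnk13 (0.9941), Mob3b (0.9929) and Plk2 (0.9924). Pdia4 had 43.1, 41.4 and 44.5 CPM in WT and 56.9, 58.8 and 58.1 CPM in Il21r-/- libraries, a far smaller step than that of Ighe, and Ccl22 had 0.982, 0.484 and 1.12 CPM in WT and 17.7, 31.2 and 19.9 CPM in Il21r-/- libraries, a larger one. Such a correlation over 6 libraries mostly reflects the split by genotype, and 88 of 10772 genes exceeded 0.95. For Ighg1 the closest were Mknk2 (0.9996), Coro7, Zbtb42, Arid5b and Prkd2, and 184 genes exceeded 0.95.

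Markers of the sorted cells and of others were read beside these results. The libraries held 21353438 to 27435124 counts, and the 8 genes took 0.2995 to 0.4404% of them. The 10 GC B cell markers, among them Bcl6, Fas and S1pr2, summed to 7425 to 8453 CPM in WT and 7681 to 9318 CPM in Il21r-/- libraries. Of 8 basophil and mast cell markers, 7, Fcer1a, Ms4a2 and Mcpt8 included, had 0 counts in all 6 libraries, and the other, Il4, reached 0.0403 CPM in a WT library. The 9 plasma cell markers summed to 3789 to 4239 CPM in WT and 4190 to 5450 CPM in Il21r-/- libraries, most of it Jchain and Mzb1. Of the 9, Xbp1 alone was higher in every Il21r-/- library (303, 273 and 266 CPM) than in every WT library (234, 214 and 197 CPM). Sdc1 and Prdm1, both under 2 CPM, were lower. Within days, Jchain, Mzb1 and Slamf7 were also higher in the Il21r-/- library each time, while Irf4, Ly6k and Tnfrsf17 went both ways. With day as a block, which called 22.9% of all genes, Jchain, Mzb1 and Irf4 were called higher (adjusted p = 0.0171, 0.00871 and 0.0384, edgeR). Some of the 7 naive or memory B cell markers moved with Ighe. Their sum was 298 to 735 CPM in WT and 706 to 1148 CPM in Il21r-/- libraries, most of it Fcer2a. Of the 7 markers, 3 (Fcer2a, S1pr1 and Ccr7) were higher in every Il21r-/- library than in every WT library. How many of all genes separate in this way was not counted, for this list or the others. Ccr6 and Klf2 were higher in the Il21r-/- library of each day, and Cr2 and Cd38 on days 10 and 14 but not on day 7. The part of these markers and of the plasma cell markers in the Ighe and Ighm results was not tested. Of T cell markers the sum was at most 1.71 CPM in WT and 2.46 CPM in Il21r-/- libraries, with Cd3e under 0.1 CPM. Myeloid markers summed to 8.35 to 14.1 CPM and 12.1 to 19.7 CPM, with Cd68 the highest of them, and erythroid markers (5 of 7 in the table) to 9.85 to 18.8 CPM and 4.76 to 33.4 CPM in WT and Il21r-/- libraries. In each of the last 3 lists 1 gene was higher in every Il21r-/- library than in every WT library, namely Trac (at most 0.983 CPM), Cd68 (9.32 to 11.0 CPM against 5.89 to 7.64 CPM) and Alas2 (at most 0.757 CPM), and the part of these genes in the results was not tested.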

How the data were processed

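RNA-seq counts were available for 6 libraries, 3 of each genotype. According to the study's methods the authors sequenced 100-base single-end reads from TruSeq libraries, pooled technical replicates, aligned to mm10 with Rsubread and deposited raw gene-level counts (whole numbers) from featureCounts with its inbuilt RefSeq annotation. The submitters' processing notes name CASAVA 1.8.2. Strand and multi-mapping settings are not given in the sources used here. Single-library files and the joint table were equal, and 0 columns lacked a sample. No 2 libraries were identical.

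The fits used edgeR 4.0.16 in R 4.3.3. After removal of Ig variable genes, Xist, genes of the Y chromosome and genes whose aveLogCPM was under 0, 11005 remained and were scaled by TMM. Dispersions (robust) came from genotype and a linear day. Genotype on each day was tested by likelihood ratio with a mean per day, and genotype over 3 days, day and the difference in trend by quasi-likelihood. Adjusted p-values are Benjamini-Hochberg over all genes tested, threshold 0.05. Fold changes are Il21r-/- over WT. CPM and RPKM use TMM-scaled library sizes and the deposited gene lengths. Shares and ratios were tested by exact two-sided permutation over the 20 splits of libraries. Intervals are for counting error alone, because PCR reads that carry no molecular identifier are not separate molecules. The fits were also run on simulated counts with known changes. These had a common dispersion for all genes and no effect of day, so they did not cover deviations that libraries of a day share. The WT and Il21r-/- libraries of a day deviated together from their genotype means (r of 0.64, 0.413 and 0.645 over 11005 genes on days 7, 10 and 14), and day was therefore also fitted as a block. DESeq2 1.42.0, other filters and scalings and leaving out each library were alternatives.

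The genes and the lists were chosen with earlier results of these data known, and a few list genes are not reported here. Genes named beyond the 8 were list members called on a day or over 3 days, Il4ra, Stat6, Il21r and Igkc, the 5 genes most correlated with Ighe and with Ighg1, list genes under the expression limit, and markers. Symbols and positions came from RefSeq (GRCm38.p6) and sequences from GENCODE transcripts of that build.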

Additional observations from a re-analysis of the deposited data

How the results depend on the processing

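Ighe was called higher in Il21r-/- cells under all 14 alternatives over 3 days (log2 fold change 2.71 to 3.02) and under all 13 on each day (2.68 to 2.87 on day 7, 2.96 to 3.33 on day 10 and 2.54 to 2.69 on day 14). Ighm kept its lower call over 3 days in 8 of 14. The number of the 8 genes called on day 7 was 3 with dispersions from day as a factor and 2 with the DESeq2 Wald test. It was 2 with a linear day term and 1 to 3 when a library was left out. Of all genes tested, 303, 67 and 177 were called in the first 3 settings and 105 to 208 without a library, against 118 in the main fit. On day 14 the number of the 8 genes was 3 with day as a factor in the dispersions and 1 to 3 without a library. Of all genes tested, 1055 were called with that factor and 339 to 679 without a library, against 361 in the main fit. Over 3 days the number of the 8 genes was 1 with Y-chromosome, Xist and Ig variable genes kept (Ighm, adjusted p = 0.0534, edgeR). It was 3 with the DESeq2 Wald test (Ighg3 added), 4 with day as a replicate block and 1 to 3 without a library. Of all genes tested, 581, 951 and 2519 were called in the first 3 settings and 136 to 2138 without a library, against 651 in the main fit. Without a library, the number of the 8 genes was 0 to 1 for the day term and 0 to 1 for the trend. Of all genes tested, 0 to 2159 were then called for the day term, against 488 in the main fit. For the trend it was 0 to 11 of all genes, against 0. The block added Ighg3 and Ighg2c and changed no other call among the 8.

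The log2 odds of the Ighg1 share became -1.17 without Ighm and Ighd, in a sum in which the Ighe share is higher. Directions of other uncalled values turned as follows, and the cause was not tested. On day 7 the log2 fold change of Ighg1 became -0.020 without a filter, -0.0059 with DESeq2 and -0.0029 with a linear day term, that of Ighg2b -0.26 and -0.26 and that of Ighg2c -0.15 and -0.13 with DESeq2 and the linear term, and on day 10 that of Igha 0.030 with the linear term. Leaving out a library gave -0.16 to 0.11 for the share of Ighd, -0.089 to 0.23 for the share of Igha and -0.12 to 0.36 for Ighd over 3 days. For the day term it gave -0.024 to 0.057 for Ighg3, -0.058 to 0.13 for Ighg2b, -0.073 to 0.12 for Ighg2c, -0.023 to 0.031 for Ighe and -0.021 to 0.020 for Igha. For the trend it gave -0.093 to 0.27 for Ighd, -0.18 to 0.24 for Ighg3, -0.025 to 0.076 for Ighg1, -0.10 to 0.43 for Ighg2b, -0.061 to 0.44 for Ighg2c, -0.15 to 0.14 for Ighe and -0.066 to 0.087 for Igha. Depth limits Ighd and Ighg2c, with 18 to 86 counts per library. The shares and ratios, at 3 libraries against 3, cannot reach p under 0.1, or under 0.25 with the replicate block.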
